A study of Homo sapiens with 131 samples.

Results

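A-to-I editing by a fusion of the P-body protein 4E-T to the deaminase domain of ADAR2 (4E-T-ADAR2dd) was compared with editing by the unfused deaminase domain (ADAR2dd control) in HCT116 cells. Both groups had 2 libraries of mRNA from HCT116, a colorectal carcinoma line. In both the enzyme was expressed on induction, so by label the groups differ in the 4E-T part and both hold a deaminase. The amount of enzyme in each line is not given, and its part in the differences in editing was not tested. The members were the genes that reached 20 reads in each of the 4 libraries, 11216 of the 11312 genes listed. The series holds 131 samples in all, and tested other P-body proteins fused to ADAR2dd or to APOBEC1, a C-to-U deaminase. The labels do not give the inducer, the promoter, whether a line was 1 clone, or whether the 2 libraries of a group came from separate cultures. P-values therefore rest on the spread between these libraries, which may be technical. In the per-gene tests the estimate of that spread borrows from all genes. A small p-value thus does not show that the libraries of that gene lie close to each other.

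Processing bodies (P-bodies) are cytoplasmic granules that hold translationally repressed mRNAs together with proteins that remove the cap, shorten the poly(A) tail or block translation. 4E-T, encoded by EIF4ENIF1, binds the cap-binding protein eIF4E and links it to the helicase DDX6, LSM14A and the CCR4-NOT machinery, and P-bodies are lost from cells without it. ADAR2dd converts adenosine to inosine in or near double-stranded RNA and has no RNA-binding domain of its own here, so in this assay (HyperTRIBE) an RNA that lies near the fused protein carries inosines, which are read as G. A gene's editing score is the number of edited reads per 100 reads. An exact 0 depends on the site calls behind the deposited counts, for which the sources used here name neither caller nor filters.

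The library-wide edited share was 0.232% in both control libraries, from 26615 edited reads of 11452080 and 25442 of 10947038. In 4E-T-ADAR2dd it was 2.42% and 2.40%, from 232691 of 9627245 and 237025 of 9872841. Both fusion libraries thus lay far above both controls. The means were 2.41% ± 0.0115 and 0.232% ± 1.51e-05 (SD, n = 2 each), a 10.4-fold difference. The exact two-sided permutation test gave p = 0.333, the smallest value that 2 against 2 libraries allow. The exact binomial 95% intervals, which cover counting error only, were 0.230% to 0.235% over the controls, and 2.41% to 2.43% and 2.39% to 2.41% for the fusion libraries. Other ADAR2dd fusions bracketed this share: LSM14A-ADAR2dd reached 4.93% ± 0.0437, PATL1-ADAR2dd 1.09% ± 0.0117 and ADAR2dd-4E-T, with the deaminase at the other end of 4E-T, 0.355% ± 0.000125 (SD, n = 2 each).

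The rise was spread over the transcriptome. The median gene score was 0.151% and 0.154% in the controls and 1.92% in each fusion library. No edited read was found for 4336 and 4358 of the genes in the controls, against 1270 and 1262 in the fusion. A score of 5% or more was reached by 21 and 23 genes in the controls and by 1228 and 1239 in the fusion. In all, 8791 genes scored higher in both fusion libraries than in both controls and 85 scored lower. Edited reads in the controls only were found for 252 genes, some of which are among the 85, and 507 genes had none anywhere. The 47 genes whose lowest library held 20 to 24 reads and the 40 genes left out with 15 to 19 both had a median score of 0 in both groups.

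**Figure D1:**
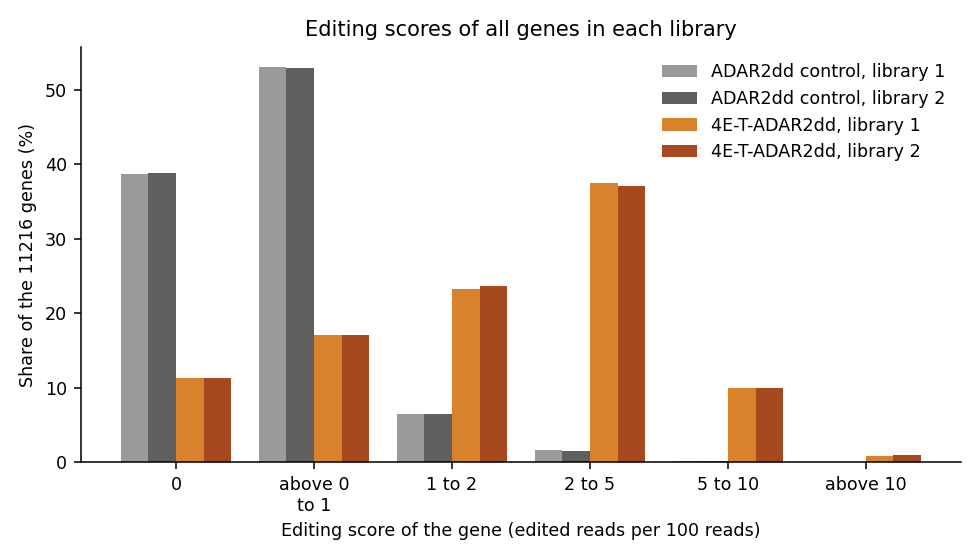
Share of the 11216 genes (%) in each band of editing score (edited reads per 100 reads), one bar per library. The bars of the 2 controls are high at 0 and at scores up to 1%, and those of the 2 fusion libraries are high above 1%, where the median gene stood at 1.92%.

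Edited reads were tested with edgeR's quasi-likelihood test with the reads of the gene as offset, for the 8103 genes with at least 10 edited reads over the 4 libraries. The remaining 3113 genes had too few edited reads for this test. Most edited reads came from the fusion libraries, so this minimum favoured genes edited there. Of the tested genes, 1270 had no edited control read and could only rise. Shares of rising genes, here and for the lists below, hold for tested genes and not for all members. The score rose for 7125 genes, or 87.9 percent of those tested, and fell for 3, or 0.037 percent (Benjamini-Hochberg adjusted p at most 0.05). Leaving out 1 library at a time gave 5261 to 6798 rises and 1 to 4 falls. The share called moved with depth: of the tested genes with 100 to 300 reads, 69.3% rose, against 98.4% of those with 3000 or more. Median scores differed between these bands as well. Over all members they were 0.357% in the control and 1.63% in the fusion at 100 to 300 reads. At 3000 or more they were 0.0131% and 1.60%. The part of depth in the calls was not tested.

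FTL, the light chain of the iron store ferritin, was the most highly edited gene among those with 100 reads or more per library. Its score was 3.40% and 2.96% in the controls and 23.7% and 22.8% in the fusion, and the groups did not overlap. The 7.30-fold rise (log2 2.87, SE 0.0876, edgeR adjusted p = 1.47e-224) was smaller than that of the library as a whole. KCTD11, an adaptor of a ubiquitin ligase, went from 0.617% and 0% to 16.6% and 19.1%. NDUFB2, a subunit of respiratory complex I, went from 0.856% and 1.04% to 17.8% and 16.8%. ATP5MF, a subunit of ATP synthase, had no edited read in 367 and 333 control reads and scored 16.7% and 17.8% in the fusion. The ribosomal protein mRNA RPS29 went from 1.82% and 1.55% to 16.5% and 17.2%, and the cytokine MIF from 0.984% and 0.692% to 15.9% and 15.7%. These genes all passed the test, and none had a fusion library near a control.

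Several of the most abundant mRNAs had no edited read at all in the controls. Translation elongation factor EEF2 had 0 edited reads in 22499 and 21945 control reads and scored 3.74% and 3.80% in the fusion, which is at least 558-fold higher (against 3 counts over the pooled control reads). The glycolytic enzyme GAPDH scored 3.57% and 3.40%, at least 415-fold above its control limit, and the 14-3-3 protein YWHAZ 3.52% and 3.66%, at least 353-fold. Keratin KRT8 scored 2.54% and 2.36%, at least 298-fold, and the chromatin protein HMGA1 4.05% and 4.02%, at least 242-fold. Cytoplasmic actin ACTB scored 1.91% and 1.94%, at least 202-fold above its limit. In each of these genes the fusion libraries lay close to each other.

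The 3 falls were small in reads. GINS1, a subunit of the replicative helicase, scored 8.74% and 8.77% in the controls and 2.34% and 1.96% in the fusion, from 25 and 27 edited reads against 3 and 2 (log2 -1.98, SE 0.623, edgeR adjusted p = 0.00201). The zinc finger gene ZNF101 scored 4.15% and 3.77% against 0.625% and 1.78%. GPLD1 scored 0.369% and 4.48% against 0.633% and 0%, so that its groups overlapped. DESeq2 called 0 falls and had none at an unadjusted p under 0.05. MT-ND5, the mitochondrial mRNA in the table and a subunit of complex I made inside the organelle, was not called, with 0.115% and 0.151% in the controls and 0.174% and 0.139% in the fusion (edgeR adjusted p = 0.202).

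The gene encoding 4E-T itself was checked first at the RNA level. EIF4ENIF1 (chromosome 22, 31436963 to 31493568, GRCh38.p14) stood at 34.4 and 38.7 RPM in the controls and at 484 and 483 in the fusion. RPM are reads per gene scaled to the TMM-adjusted total of the library. The rise was 3.73 (log2, SE 0.0411), as the label of the libraries implies. Reads of the transgene and of the endogenous gene were not separated. The score of EIF4ENIF1 went from 1.02% and 0.711% to 9.46% and 8.68%, a 10.6-fold rise (edgeR adjusted p = 1.26e-18), close to the rise of the library as a whole.

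mRNAs of the other P-body and decapping factors were edited by the fusion as well. Of 24 genes of this list, EIF4ENIF1 included, 18 could be tested, 17 rose and none fell, beside 87.9 percent of all tested genes that rose. Under the alternatives tried, 13 to 17 rose. The median score of the list in the fusion, over all 24, was 2.88%, against 1.92% over all genes. The decapping enzyme DCP2 went from 0.591% and 0.323% to 7.79% and 8.42%. The helicase DDX6, a direct partner of 4E-T, went from 0.564% and 0.510% to 8.39% and 7.69% (log2 3.89, edgeR adjusted p = 2.22e-95). The scaffold EDC3 went from 0.167% and 0.559% to 6.91% and 6.35%. In these mRNAs both fusion libraries lay above both controls by more than the libraries of a group differed.

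PATL1, which bridges DDX6 and the decapping complex, went from 0.0875% and 0.171% to 5.90% and 5.99%. PNRC2, a coactivator of decapping, went from 0% and 0.0935% to 5.28% and 4.74%, and LSM4, a subunit of the LSM ring that binds shortened tails, from 0.0942% and 0% to 5.68% and 3.74%. The fusion libraries differed most for LSM2, another subunit of the ring, at 8.19% and 2.11% against 0% and 0.394% in the controls, and for the decapping activator DCP1B, at 7.72% and 2.27% against 0.469% and 0.552%. Lower scores were found for the RNA-binding protein LSM14A, at 1.97% and 1.16% in the fusion against 0.0483% and 0%. The scaffold EDC4 scored 1.95% and 2.30% against 0.116% and 0.0603%. The exonuclease XRN1 scored 3.56% and 2.62% against 0.764% and 0.270%. DCPS, which degrades the cap left by 3′-to-5′ decay, was the tested gene that did not pass, with 2.18% and 1.16% in the controls and 2.89% and 2.45% in the fusion. LSM1, LSM3, LSM5, LSM6, LSM7 and NBDY had too few edited reads for the test, and LSM1 had none in any library.

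**Figure D2:**
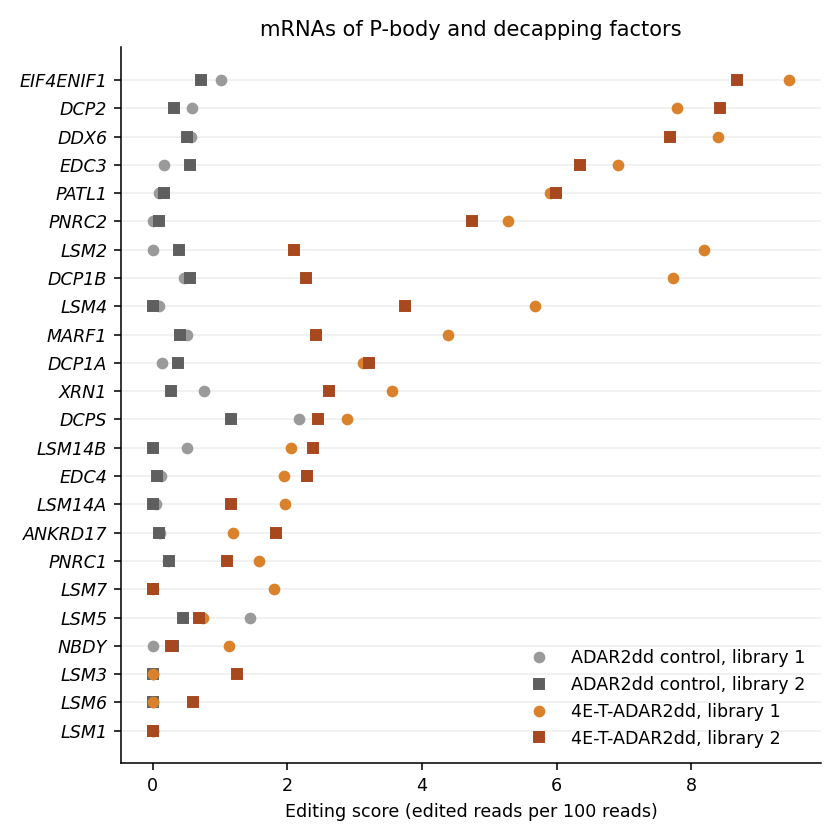
Editing score (edited reads per 100 reads) of the mRNAs of P-body and decapping factors in each of the 2 control and 2 fusion libraries, ordered by the score in the fusion. Points of the fusion lie to the right of the control points for most genes, with EIF4ENIF1 at 9.46% and 8.68% at the top and LSM1 at 0 in all 4 libraries.

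To ask which mRNAs stood above or below the library-wide rise, the same test was run with the score divided by the library-wide edited share (relative editing). Relative editing was higher in the fusion for 1190 genes, or 14.7 percent of 8103, and lower for 882, or 10.9 percent. These calls depended on having both fusion libraries: without 4E-T-ADAR2dd library 1 or without library 2, edgeR called 0 in either direction (726 and 710 genes higher and 730 and 786 lower at an unadjusted p under 0.05). Without control library 1 the counts were 746 and 597, and without control library 2 they were 781 and 596. Of the 1190 genes, 666 had no edited control read, so that their fold depends on the counting limit of the control. Depth moved with the calls: 65.5% of tested genes with 3000 or more reads were relatively higher, against 0.577% of those with 100 to 300. The median of the gene's reads was 1948 for relatively higher genes and 762 over all tested genes. The part of depth in these calls was not tested. Scaled by TMM in place of the library-wide share, which takes out a 6.82-fold instead of a 10.4-fold rise and moves the median of all genes from 0.05 to 0.65 (log2), the calls became 1853 higher and 494 lower.

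Within these limits, several lists had shares of relatively higher genes above the 14.7 percent of all tested genes, among them translation, the cytoskeleton, the proteasome, stress and the ribosomal proteins (30 of 52). The rises counted here stand beside 87.9 percent of all tested genes that rose, and the relatively lower genes beside 10.9 percent. Of 36 tested translation factors 34 rose, and in relative editing 18 were higher and none lower. The scaffold EIF4G1, which 4E-T competes with for eIF4E, went from 0.00933% and 0.0579% to 3.44% and 3.02% (relative log2 3.22, SE 0.395, edgeR adjusted p = 4.88e-14). Of 26 tubulin and actin genes all rose, and 17 were relatively higher and none lower. All 21 tested genes of the unfolded protein response and of ATF4, a stress-induced transcription factor, rose, with 10 relatively higher and none lower. Among 24 tested proteasome genes 23 rose, with 14 relatively higher and 2 lower. Median scores in the fusion were 1.94% for translation factors, 1.72% for tubulin and actin, 1.76% for the stress list and 1.42% for the proteasome, beside 1.92% over all genes. Median reads were 2244 for translation factors, 3414 for tubulin and actin, 770 for the stress list and 1780 for the proteasome, against 552 over all genes. Of their tested genes, 15, 19, 6 and 16, in that order, had no edited control read. The part of this in the counts was not tested.

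Of 22 tested cap-binding proteins and partners of 4E-T 21 rose, beside 87.9 percent of all tested genes, and 7 were relatively higher and 1 lower (31.8% and 4.55%, beside 14.7 and 10.9 percent of all tested genes). The median score of the list was 2.65% in the fusion. The eIF4E-binding repressor EIF4EBP2 went from 0.328% and 0.390% to 5.92% and 6.68%. The mRNA of eIF4E itself, EIF4E, scored 0% and 0.0764% in the controls and 1.30% and 0.728% in the fusion. Of 34 tested genes of the CCR4-NOT and PAN deadenylases and of miRNA silencing 33 rose, with a median score of 2.90%, and 4 were relatively higher and 3 lower (11.8% and 8.82%), shares near those of all tested genes. CNOT1, the scaffold of CCR4-NOT, went from 0.0384% and 0.121% to 2.70% and 2.62% (relative log2 1.70, edgeR adjusted p = 0.00296). AGO2, which carries miRNAs, went from 0.458% and 0.642% to 3.72% and 3.48% and was relatively lower (log2 -0.65, edgeR adjusted p = 0.0458). Of the 18 tested P-body factors 3 were relatively higher, 16.7% and so near the share of all tested genes, PNRC2 (log2 3.30), LSM4 (3.19) and PATL1 (2.12), and DCPS was lower (-2.70). The 3 rises were not called by DESeq2 or by limma, and leaving out 1 library left 0 or 1 of them.

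Median scores below the 1.92% of all genes were found for lists of cell division and of the mitochondrion, and, lower still, for the cytosolic ribosomal protein genes (0.634%). Of 20 tested mitotic factors 14 rose, beside 87.9 percent of all tested genes, with a median score of 1.26% over the 41 genes of the list. In relative editing 3 were lower (15%, beside 10.9 percent of all tested genes) and none higher. Median reads were 365 for mitotic factors, 478 for mitochondrial ribosomal protein genes and 256 for zinc finger genes, against 552 over all genes. The part of depth in these counts was not tested. Of 43 tested mitochondrial ribosomal protein genes 38 rose, near the share of all tested genes, with a median of 1.19%. Of 42 tested oxidative phosphorylation genes 40 rose, with a median of 1.31%, and 12 were relatively higher (28.6%, beside 14.7 percent of all tested genes) and 5 lower. Zinc finger genes had a median close to that of all genes, 1.90%, with 135 of 173 rising. Of these 173, 10 were relatively higher and 27 lower (5.78% and 15.6%, beside 14.7 and 10.9 percent of all tested genes). Among 13 detected members of 20 HCT116 epithelial markers 9 were tested, and all 9 rose. The libraries held reads of 4 of 18 HEK293T markers and of 2 of 18 fibroblast and blood cell markers at the read minimum, while the epithelial markers EPCAM, CDH1, KRT8 and KRT18 were among those measured. Markers below the minimum were not listed in the file or had too few reads.

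The direct comparison with LSM14A-ADAR2dd, another P-body fusion with the deaminase at the same end, used no control library. Relative to each fusion's own library-wide share, 1606 genes were higher with 4E-T, or 17.5 percent of the 9179 tested, and 1139 were lower, or 12.4 percent. Leaving out 1 library gave 787 to 1565 higher and 725 to 1094 lower, and DESeq2 gave 737 and 621. The cytosolic ribosomal protein genes, which encode the proteins of the ribosome, were the list with the highest share of lower calls among those described: 59 of 72 tested were lower with 4E-T and 2 were higher, RPS29 and RPL38. The median relative log2 of the list was -2.04, beside 0.19 over all genes. The count of lower genes was 50 with DESeq2 and 56 to 61 without 1 library. Ribosomal protein genes have many near-identical pseudogene copies, so their read assignment, and with it their score, is uncertain.

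The same genes can be read off each library. The median score of the 78 ribosomal protein genes was 0% in both controls, 0.575% and 0.776% in 4E-T-ADAR2dd, and 6.80% and 7.31% in LSM14A-ADAR2dd. Over all genes the median was 1.92% in both 4E-T-ADAR2dd libraries and 3.25% and 3.48% in LSM14A-ADAR2dd. Ribosomal protein mRNAs thus lay below the typical gene with 4E-T and above it with LSM14A. The low position was not particular to 4E-T-ADAR2dd. With ADAR2dd-4E-T the median of the list was 0% in both libraries, against 0.259% and 0.260% over all genes. With PATL1-ADAR2dd it was 0.414% and 0.333% over 61 genes of the list, against 0.781% and 0.765%. In 17 of the 78 no edited read was found in either 4E-T-ADAR2dd library, against 1 with LSM14A-ADAR2dd and 43 with ADAR2dd-4E-T. Over all 11215 genes scored with these fusions the counts, in that order, were 758, 812 and 2634. Against the unfused control, 49 of 52 tested ribosomal protein genes rose, beside 87.9 percent of all tested genes. In relative editing 30 were higher and 7 lower, beside 14.7 and 10.9 percent of all tested genes. Of these 30, 23 had no edited control read, and leaving out 1 library turned the 30 into 0 (either 4E-T-ADAR2dd library) to 21. Among the 2786 genes with 1000 or more reads per library, 32 had no edited read with 4E-T-ADAR2dd, and 14 of these were among the 69 ribosomal protein genes at that depth.

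Many ribosomal protein mRNAs start with a C followed by a run of pyrimidines, the terminal oligopyrimidine (TOP) motif through which growth signalling controls their translation. The windows below run from 10 bases before to 20 bases after the RefSeq gene start (GRCh38.p14) and are given 5′ to 3′ on the strand of the gene, with capitals for the motif CTTTC, the motif CTCTT and the motif CTTTT, which may overlap. They show 5 genes among the largest differences from LSM14A, then RPL35 and RPS3, which were edited by 4E-T, and RPS29, which was called in the opposite direction.
RPS18: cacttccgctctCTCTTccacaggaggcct
RPS12: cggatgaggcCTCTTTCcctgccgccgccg
RPLP2: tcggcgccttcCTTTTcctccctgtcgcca
RPL24: atgattctCTCTTTCTTTTcgccatCTTTT
RPS25: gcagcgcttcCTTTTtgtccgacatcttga
RPL35: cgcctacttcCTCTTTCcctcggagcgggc
RPS3: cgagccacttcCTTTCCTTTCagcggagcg
RPS29: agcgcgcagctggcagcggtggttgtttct

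These windows lie at chr6:33272065-33272094 (RPS18, plus strand), chr6:132814559-132814588 (RPS12, plus), chr11:809957-809986 (RPLP2, plus), chr3:101686699-101686728 (RPL24, minus) and chr11:119018324-119018353 (RPS25, minus). RPL35 lies at chr9:124861938-124861967 (minus), RPS3 at chr11:75399508-75399537 (plus) and RPS29 at chr14:49598691-49598720 (minus). At least 1 of the 3 motifs was present on the gene's strand in 50 of 63 ribosomal protein genes with a RefSeq window (79.4%) and in 1195 of 9115 genes of the whole set (13.1%). On the other strand the shares were 4.76% and 7.75%. Of the genes relatively higher with 4E-T than with LSM14A, 158 of 1323 held a motif (11.9%). Of those relatively lower, ribosomal protein genes left out, 119 of 920 did (12.9%). Ribosomal protein genes were left out of this lower set only, not of the higher set or the whole set. Both shares lay near the 13.1% of the whole set. A match is a description of these letters, and the window of RPS29 holds none. Each window rests on the annotated gene start, and the starts used in these cells were not measured. A motif at another start would be missed.

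RPS18, a protein of the small subunit, had 0 edited reads in 9565 reads of the pooled 4E-T-ADAR2dd libraries, which allows a score of up to 0.0314%, and scored 6.16% and 5.19% with LSM14A-ADAR2dd. The score with LSM14A was at least 181-fold higher. RPL10 had 0 of 9857 reads, which allows up to 0.0304%, and scored 6.15% and 5.02% with LSM14A, at least 184-fold higher. RPLP2, RPS12, RPL24 and RPS25 were also at 0 in both 4E-T-ADAR2dd libraries and scored between 2.83% and 8.38% with LSM14A-ADAR2dd. RPL27A scored 0.372% and 0.792% with 4E-T and 20.7% and 20.1% with LSM14A (relative log2 -4.08, SE 0.170, edgeR adjusted p = 5.82e-12). RPL37 scored 0.472% and 0.926% against 17.8% and 16.8% (-3.58), and RPS6, the target of S6 kinase, 0.586% and 0.626% against 14.2% and 14.7% (-3.54). In these genes no library of one fusion came near a library of the other.

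Some ribosomal protein mRNAs were edited strongly by both fusions. RPL35 scored 9.21% and 8.98% with 4E-T and 16.4% and 16.5% with LSM14A, and the difference relative to the libraries did not pass (log2 0.18, edgeR adjusted p = 0.18). RPS3A scored 8.16% and 8.45% against 18.5% and 16.8% (-0.05, edgeR adjusted p = 0.68). RPS29 scored 16.5% and 17.2% against 23.0% and 23.6% and was relatively higher with 4E-T (0.56, SE 0.126, edgeR adjusted p = 0.00259). RPL35 and RPS18 both hold a motif in their windows. The window of RPS29, the highest of the list with 4E-T, holds none at its annotated start, and other starts of RPS29 were not searched.

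**Figure D3:**
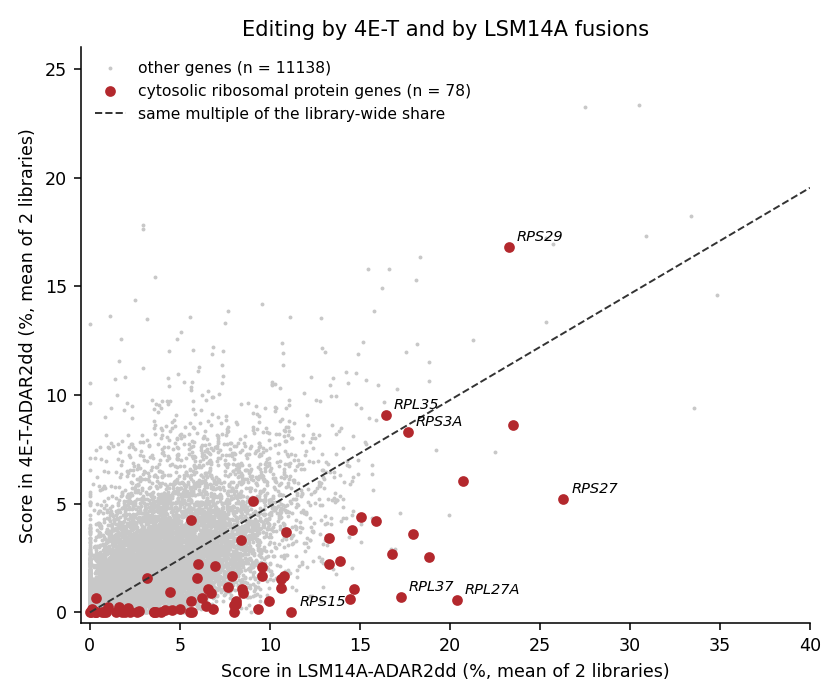
Editing score of each gene (%, mean of 2 libraries) with LSM14A-ADAR2dd (horizontal) and with 4E-T-ADAR2dd (vertical), with the 78 cytosolic ribosomal protein genes in red. Most red points lie along the bottom, far below the dashed line of equal multiples of the library-wide share, with RPS29 and RPL35 near or above it (3 genes lie outside the axes).

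Other lists were more often higher with 4E-T than with LSM14A. Among ubiquitin-conjugating enzymes, which hand ubiquitin to its targets, 15 of 30 were relatively higher and 2 lower (8 higher with DESeq2, and 8 to 14 without 1 library). UBE2D3 scored 7.75% and 7.13% with 4E-T and 6.68% and 6.24% with LSM14A (relative log2 1.24, edgeR adjusted p = 4.14e-08). Of 40 RAB GTPase genes, which direct vesicle traffic, 15 were higher and 1 lower, and of 199 zinc finger genes 58 and 4. Of 35 CCR4-NOT, PAN and miRNA silencing genes 12 were higher and 2 lower. The anti-proliferative adaptor TOB1, which brings CCR4-NOT to mRNAs, scored 2.89% and 2.07% against 1.57% and 1.07% (1.96, edgeR adjusted p = 0.0044). These counts stand beside the 17.5 and 12.4 percent of all genes.

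Short-lived mRNAs of the immediate early response, many with AU-rich elements that recruit decay factors, had 16 of 37 genes relatively higher and 3 lower. Over all tested genes the shares were 17.5 and 12.4 percent. The transcription factor JUN scored 3.98% and 2.71% with 4E-T and 0.880% and 0.440% with LSM14A (relative log2 3.43, edgeR adjusted p = 1.35e-05). JUNB scored 3.08% and 3.06% against 1.46% and 1.51% (2.07), and IER2 0.764% and 1.20% against 0.0889% and 0.343% (3.01). In these 3 genes the score itself, not just the share of the library, was higher with 4E-T in both libraries, although LSM14A-ADAR2dd edited more overall. The translocon subunit SEC61G scored 3.41% and 2.81% with 4E-T and 0% in both LSM14A-ADAR2dd libraries, and the G protein subunit GNG5 5.60% and 4.58% against 0% and 0%.

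Of the 20 tested P-body factors 6 were relatively higher and 2 lower, beside 17.5 and 12.4 percent of all tested genes. DDX6 scored 8.39% and 7.69% with 4E-T and 12.7% and 11.9% with LSM14A (relative log2 0.42, edgeR adjusted p = 0.00167). LSM14A, whose reads include a transgene in the LSM14A-ADAR2dd libraries, scored 1.97% and 1.16% against 8.15% and 7.51% (-1.29). EIF4ENIF1, which has the transgene in the 4E-T libraries, scored 9.46% and 8.68% against 14.2% and 9.95% (0.67, edgeR adjusted p = 0.00546). Translation factors (7 higher, 14 lower of 39), interferon-stimulated genes (2 and 7 of 23) and cholesterol synthesis genes (1 and 6 of 23) had more lower than higher calls. The same shares of all tested genes stand beside these counts.

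**Figure D4:**
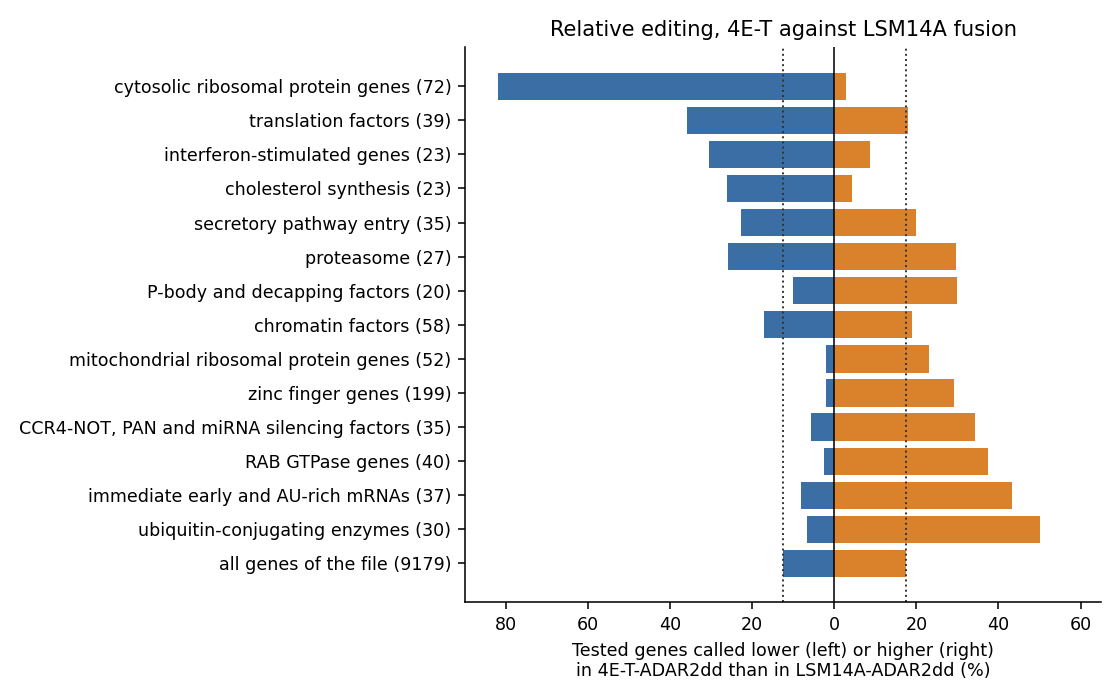
Share of tested genes of each list (%) called lower (blue, left) or higher (orange, right) in relative editing with 4E-T-ADAR2dd than with LSM14A-ADAR2dd, with the number tested in brackets and dotted lines at the shares of all genes. The ribosomal protein genes, with 59 of 72 lower, extend far to the left, and the ubiquitin-conjugating enzymes, with 15 of 30 higher, to the right.

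The order of the fusion partners was compared through ADAR2dd-4E-T. Relative to each library's share, 660 genes were higher with 4E-T-ADAR2dd, or 8.2 percent of 8053, and 515 lower, or 6.4 percent. Without either 4E-T-ADAR2dd library none was called, while leaving out an ADAR2dd-4E-T library gave 497 or 508 higher and 375 or 381 lower, and DESeq2 gave 180 and 127. The ferritin heavy chain FTH1 scored 7.64% and 6.99% with 4E-T-ADAR2dd and 0% in both ADAR2dd-4E-T libraries. The glycolytic enzyme TPI1 scored 3.76% and 3.47% against 0% and 0%, and the splicing factor SF1 5.68% and 5.19% against 0% and 0%. In the other direction the Golgi protein GOLGA4 scored 0.0459% and 0.217% with 4E-T-ADAR2dd and 0.651% and 0.892% with ADAR2dd-4E-T, although the latter edited less overall (relative log2 -5.19, edgeR adjusted p = 1.01e-05). Of 53 ribosomal protein genes 28 were higher and 2 lower, and of 57 chromatin factors 4 were higher and 11 lower. In 43 of the 78 ribosomal protein genes no edited read was found in either ADAR2dd-4E-T library, beside 2634 of 11215 genes. Folds against a score of 0 depend on the counting limit of that fusion.

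Against PATL1-ADAR2dd, with another partner of DDX6 at the same end, 570 genes were relatively higher with 4E-T, or 6.91 percent of 8248, and 368 lower, or 4.46 percent. The table of that fusion lists fewer genes, and 690 genes of the 4E-T table were not compared. Without 4E-T-ADAR2dd library 1 the counts were 1 and 8, without library 2 they were 0 and 1, and DESeq2 gave 179 and 154. The initiation factor EIF1 scored 2.83% and 2.97% with 4E-T and 0% in both PATL1-ADAR2dd libraries, and the ATP synthase subunit ATP5MC3 3.40% and 3.57% against 0% and 0%. The protease inhibitor SPINT2 scored 0% and 0.322% with 4E-T and 1.08% and 1.18% with PATL1 (relative log2 -3.92, edgeR adjusted p = 1.16e-06). Of 50 ribosomal protein genes 6 were higher and 16 lower with 4E-T. The median of the list with PATL1-ADAR2dd was 0.414% and 0.333% over the 61 genes its table holds, below the 0.781% and 0.765% of all genes.

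The other deaminase gave a second test of the same protein. 4E-T-APOBEC1, which converts C to U, was compared with unfused APOBEC1, and the relative rise of each gene was tested for a difference between the deaminases (interaction term, edgeR). The rise was larger with ADAR2dd for 660 genes, or 7 percent of the 9431 tested, and smaller for 359, or 3.81 percent. The library-wide share was 0.576% ± 0.0203 (SD, n = 2) with 4E-T-APOBEC1 and 0.313% ± 0.00325 (SD, n = 3) with APOBEC1 alone. Ribosomal protein genes were 4 larger and 2 smaller of 57 tested, near the shares of all genes, and P-body factors 1 larger and 2 smaller of 20. The 2 deaminases act on different bases, so the sites a gene offers differ between them.

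RNA levels also differed between the fusion and the control. Tested with edgeR on reads with TMM scaling, 3508 genes were higher in the fusion, or 31 percent of 11298, and 3575 lower, or 31.6 percent. Most changes were small: 55 genes rose and 104 fell by more than 2-fold. Beside EIF4ENIF1, the immediate early gene FOSB went from 27.1 and 30.5 RPM to 84.1 and 90.9 (log2 1.61, SE 0.0630, edgeR adjusted p = 4.52e-139). PPP1R15A, which reverses the stress-induced block of translation initiation, went from 86.9 and 89.5 to 249 and 241 RPM (1.47), and KCTD11 from 14.1 and 12.9 to 40.0 and 43.0 RPM (1.62). In the other direction the ribonucleotide reductase subunit RRM2 went from 171 and 163 to 68.6 and 62.4 RPM (log2 -1.35, SE 0.0446, edgeR adjusted p = 8.20e-196). The thymidine kinase TK1 went from 104 and 106 to 42.2 and 40.3 RPM (-1.35), and the mitotic survival factor BIRC5 from 66.4 and 67.7 to 27.7 and 27.9 RPM (-1.27). In bulk RNA, fewer cells of a kind and less RNA per cell cannot be told apart.

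Cell division genes fell together. The counts of this and the next lists stand beside 31 percent of all tested genes that rose and 31.6 percent that fell in RNA level. Of 41 mitotic factors 40 fell and none rose in RNA level, with a median log2 of -0.66, and 39 or 40 fell under every alternative tried. BUB1B fell by 1.02 and MAD2L1 by 0.98 (log2), both checkpoint proteins, while the microtubule polymerase CKAP5 stood at -0.03 and was not called. Of 24 cholesterol synthesis genes 19 fell and 1 rose (median -0.37), of 77 oxidative phosphorylation genes 56 fell and 5 rose (-0.23), and of 37 genes of secretory pathway entry 28 fell and none rose (-0.27). Among 30 unfolded protein response and ATF4 genes 20 fell and 6 rose. The serine synthesis enzymes PHGDH and PSAT1 fell by 0.82 and 0.81, while DDIT3, ATF3 and ATF4, transcription factors of the same response, rose by 1.19, 1.21 and 0.42 (log2).

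Lists that rose were those of chromatin, translation and immediate early genes. Of 59 chromatin factors 42 rose and 5 fell (median 0.18), with the histone demethylase KDM6B at 1.17 and the methyltransferase KMT2B at 0.80. Of 41 translation factors 27 rose and 6 fell, and of 42 immediate early and AU-rich genes 25 rose and 6 fell (median 0.26), with KLF6 at 1.12 and JUN at 0.88. Of 78 ribosomal protein genes 46 rose and 8 fell, with a median of 0.10. Over all genes tested for RNA level 31 percent rose and 31.6 percent fell. The P-body factors, with 7 rising and 7 falling of 24, lay near these shares. Relative editing and RNA level were set side by side: of the 1190 relatively higher genes, 334 were higher and 616 lower in RNA level, and of the 882 relatively lower genes, 330 and 269. These counts stand beside the 31 and 31.6 percent of all genes tested for RNA level. Median reads were 1948 for the relatively higher genes, 682 for the relatively lower genes and 762 over all genes tested for editing. The part of depth in these counts was not tested.

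**Figure D5:**
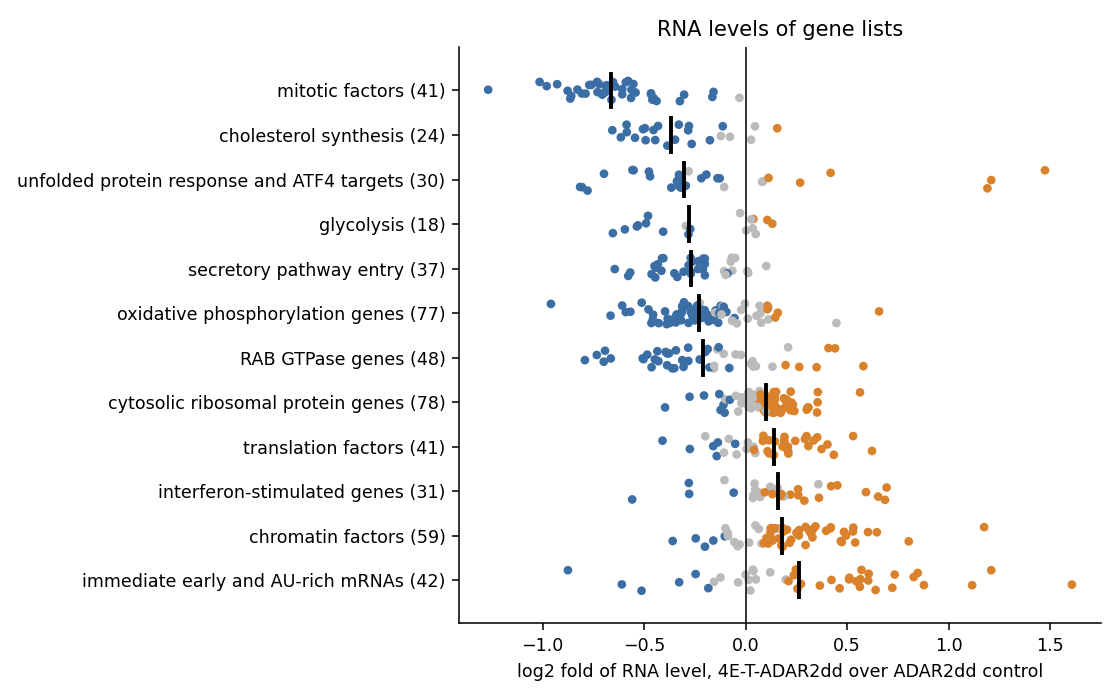
Log2 fold of RNA level, 4E-T-ADAR2dd over the ADAR2dd control, for each gene of 12 lists (number of genes in brackets), orange where higher, blue where lower and grey where not called, with black bars at the medians. Mitotic factors lie to the left of 0 with a median of -0.66, and most immediate early genes lie to the right, with a median of 0.26.

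Other measures of the same genes were set beside the scores as a description. Control scores and reads also entered the tests above, while TPM, translation efficiency and tail lengths did not. Across 10001 genes with enough reads, the Spearman correlation of the fusion score with the control score was 0.293. The correlation with reads was 0.0269, and with TPM of uninduced HCT116 it was -0.0425. Replicate libraries, for comparison, correlated at 0.816 in the fusion and at 0.488 in the control. With log2 translation efficiency of wild-type HCT116, a deposited value without replicates, the fusion score had a correlation of 0.0170 and the control score -0.205 (9998 genes). The median log2 translation efficiency was 0.09 for the relatively higher genes, -0.51 for the relatively lower genes and -0.14 for the genes called in neither direction. The median poly(A) tail from nanopore reads not edited by both of the editors in that library was 148 nucleotides for 379 relatively higher genes, 137 for 64 relatively lower genes and 152 for 621 others. All scores of a library share its depth, and genes are not independent replicates.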

How the data were processed

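Per the file headers, the authors deposited for each gene and library counts of reads, counts of edited reads and their ratio as a fraction, here called the score. The submitters' processing notes name FastQC 0.11.9, cutadapt 1.18, STAR 2.7.9a, featureCounts 2.0.1 and build hg38, without roles. The authors also deposited TPM of uninduced cells, log2 translation efficiency (1 value per genotype) and median poly(A) tail lengths per gene, a signal in nucleotides from nanopore reads.

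The test of edited reads was the quasi-likelihood test of edgeR 4.0.16 (R 4.3.3), run on genes with 20 reads in every library and 10 edited reads in all, with the log of reads, or of reads times the library-wide share, as offset. RNA level was tested on reads with TMM. P-values were two-sided, with Benjamini-Hochberg adjustment over all genes tested and a threshold of 0.05. DESeq2 1.42.0, limma 3.58.1 (pseudocount 0.1 percent), other minimums, other scalings, a replicate block and leaving out single libraries were alternatives. The scripts were checked on simulated counts. Python 3.11.15 was used for the rest. Intervals are exact binomial at 95%, and a count of 0 was given a limit of 3 counts.

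The members and gene lists were chosen with earlier results of these data known. The named genes were EIF4ENIF1, the P-body factors, the most extreme called genes of each comparison with 100 reads or more per library, and the 3 highest and 2 lowest of each list in relative editing. Other genes named, among them the ribosomal protein examples and those of the direct comparison, were picked after their values were seen. RefSeq symbols (GRCh38.p14) matched 11149 genes and not 163. The tables of 4E-T-ADAR2dd, ADAR2dd-4E-T and LSM14A-ADAR2dd repeat the same control libraries, so fusions were compared directly. Replicates were compared by a chi-square test of reads over genes, whose value per degree of freedom was 1.07 in the control (p = 1.12e-07) and 1.04 in the fusion (p = 0.00203), above sampling noise. For edited reads, the quantity tested, the value per degree of freedom was larger, 1.32 in the control and 1.25 in the fusion. The libraries were kept apart.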

Additional observations from a re-analysis of the deposited data

Results flagged for a closer look

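The relative rise with 4E-T differed between the deaminases in the interaction test (edgeR, adjusted p at most 0.05) for 660 genes in favour of ADAR2dd and for 359 in favour of APOBEC1. RPL4, a ribosomal protein mRNA, had no edited read in the ADAR2dd controls and scored 0.859% and 0.885% with 4E-T-ADAR2dd, while it scored 0.319%, 0.227% and 0.278% with APOBEC1 alone and 0% in both 4E-T-APOBEC1 libraries (edgeR adjusted p = 1.63e-18). The kinase MAP3K11 showed the same order, with 0% and 0% against 3.18% and 2.80% for ADAR2dd, and 0.336%, 0.788% and 0.261% against 0% and 0% for APOBEC1. In the other direction KBTBD8, an adaptor of a ubiquitin ligase, went from 0.702% and 1.01% to 2.17% and 0.976% with ADAR2dd, and from 0% in 3 APOBEC1 libraries to 2.97% and 2.87% with 4E-T-APOBEC1 (edgeR adjusted p = 0.00791). MED7, a subunit of Mediator, scored 1.32% and 1.42% against 0.775% and 1.45% with ADAR2dd, and 0% in 3 libraries against 2.13% and 2.22% with APOBEC1. In each of these genes at least 1 group had no edited read. Their interaction folds, such as log2 17.1 (SE 1.76) for RPL4 and -8.47 (SE 2.56) for MED7, thus depend on the counting limit of that group. The numbers of edited reads behind these scores are not given here. Leaving out 1 library gave 358 to 563 and 203 to 309 genes.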

How the results depend on the processing

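The direction of the library-wide rise held under every alternative, at 10.3- to 10.4-fold without 1 library and 12.6-fold as a ratio of median gene scores. Absolute rises stayed within 1.5 times their count, while the 3 falls became 1 with 30 edited reads, 0 with DESeq2 and 1 to 4 without 1 library. Relative calls moved to 577 lower with 30 edited reads, 467 higher and 447 lower with DESeq2, 624 higher with limma, 1853 and 494 with TMM, and 0 to 781 and 0 to 597 without 1 library. Relatively higher ribosomal protein genes numbered 17 with DESeq2, 13 with limma and 0 to 21 without 1 library, and P-body factors 0 with DESeq2 and limma, 7 with TMM and 0 to 1 without 1 library. With limma the relative fold of EIF4A3 was -1.20, of DHCR7 -0.14, of CALR -0.14, of HDAC1 -0.21 and of BUB3 -0.99, where edgeR gave a positive one, and the cause was not tested. DESeq2 gave 2269 RNA rises with its own size factors.

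DESeq2 gave 180 and 127 genes against ADAR2dd-4E-T, 737 and 621 against LSM14A-ADAR2dd (8 ubiquitin-conjugating enzymes), 179 and 154 against PATL1-ADAR2dd, and 377 and 235 for the interaction. Without 1 library the counts were 0 to 508 and 0 to 381 against ADAR2dd-4E-T, 787 to 1565 and 725 to 1094 against LSM14A-ADAR2dd (8 to 14 ubiquitin-conjugating enzymes), 0 to 513 and 1 to 338 against PATL1-ADAR2dd, and 358 to 563 and 203 to 309 for the interaction. A group left with 1 library was assumed to vary like the other.

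Same-numbered libraries did not deviate together (r = -0.0066 for scores and 0.021 for RPM over 10001 genes), so the numbers were not taken to pair them. With the replicate block the falls were 1, the relative calls 960 and 617, and the interaction 430 and 231. Of 875 genes with 20 to 100 reads 42 could be tested, and of 2598 with 100 to 300 reads 1039, so a missing call there shows no lack of editing.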
